A study of Mus musculus with 56 samples.

Results

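Whole spinal cord RNA of 9-week-old female mice carrying wild-type human TDP-43 was compared with that of age-matched mice without it. The comparison held every library whose title named the 9-week cord and either the hTDP-43 WT or the control genotype, 6 libraries for each, 12 of the 56 in the series. The other libraries of the series came from a mutant line (hTDP-43 A315T), from 14 weeks of age, or from RNA bound to motor neuron ribosomes (MN-TRAP). The mice of both groups carried the Chat bacTRAP transgene (line DW167), which puts a GFP-tagged ribosomal protein into cholinergic neurons. The strain name also lists the acetylcholine transporter gene Slc18a3 in this transgene. The control mice (Chat bacTRAP) carried nothing else. The hTDP-43 WT mice carried in addition human wild-type TARDBP driven by the mouse prion promoter (line 3cPtrc). They served in the study as a second control, since hemizygous animals of this line have been described as free of ALS symptoms. In the study's own behavioral tests and body weights, such double transgenic mice did not differ from wild-type littermates. Both lines were congenic on C57BL/6J. The transgenic group is thus 1 founder line, and its promoter is active in many neural cell types and not in motor neurons alone. The cord libraries were made from the lysate set aside before the ribosome pulldown, after centrifugation had removed debris, so they hold RNA of all cord cells. The labels name the cervical cord, whereas the methods speak of the spinal cord. No source ties a library to one animal, so the p-values below measure the spread between libraries.

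TDP-43 is a nuclear RNA-binding protein that controls splicing and the stability of many transcripts, and it forms aggregates in motor neurons in ALS. The protein binds the 3′ end of its own mRNA and lowers its level, so that added TDP-43 is known to reduce the endogenous transcript. The mouse genome also holds processed pseudogenes of Tardbp, copies of the spliced mRNA that were reinserted elsewhere in the genome.

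One of these copies, Gm13886, was the single gene that passed the test, and a stretch of it is shown beside its parent. Gm13886 (ENSMUSG00000083856) lies between Qser1 and Prrg4 at chr2:104820179-104821361 on the plus strand (GRCm38), and is annotated as a processed pseudogene of 1 exon. Its 1183-base transcript aligned to the Tardbp transcript over 1202 columns with 93.9% identity, from position 402 to position 1598, which covers most of the coding sequence at 354 to 1595. The 180 bases printed below come from the longest stretch of coding sequence without a gap (291 bases). Within it they are the window with the most differences, so their share of equal bases was set by that choice. The first line is chr2:104820464-104820643 on the plus strand, and the second is the mouse Tardbp mRNA from exons 3 to 4, taken from chr4:148620621-148622016 on the minus strand with the intron removed. Capitals mark the 12 bases at which the copies differ, and the other 168 bases (93.3%) are equal.
Gm13886: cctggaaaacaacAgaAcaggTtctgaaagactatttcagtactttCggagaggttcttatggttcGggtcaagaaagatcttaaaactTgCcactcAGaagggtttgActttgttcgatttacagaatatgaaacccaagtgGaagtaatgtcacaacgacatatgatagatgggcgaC
Tardbp: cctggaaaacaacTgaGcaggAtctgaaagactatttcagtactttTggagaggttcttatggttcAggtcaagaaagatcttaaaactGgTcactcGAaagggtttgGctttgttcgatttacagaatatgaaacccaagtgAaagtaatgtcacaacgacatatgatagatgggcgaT
Both letters at such a position come from mouse copies. The human transgene has its own row in none of the tables, and its sequence was not used here.

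Depth was 23.7 to 86.7 M counts in hTDP-43 WT (median 42.1) and 17.5 to 34.5 M in Chat bacTRAP (median 30.3), a difference with an exact two-sided permutation p of 0.0823. A few libraries stood apart in composition. In hTDP-43 WT replicate 4, mitochondrially encoded genes took 10.1% of counts. Some sensory neuron genes were high in a few libraries. Scn11a, a sodium channel of dorsal root ganglion neurons, was at 4.83 and 5.86 CPM in hTDP-43 WT replicates 2 and 3 (CPM, a gene's counts per 1 M counts of its library after TMM scaling). It was at 2.06 CPM in Chat bacTRAP replicate 2 and at 0.0672 to 0.254 CPM in the other 9. The share of counts from the whole dorsal root ganglion list did not set these 3 apart. It was 0.0518% and 0.0285% in hTDP-43 WT replicates 2 and 3 and 0.0252% in Chat bacTRAP replicate 2, but 0.0306% in hTDP-43 WT replicate 6. Over 19 such measures of a library (depth, genes detected, and the share of counts from lists of marker genes), 0 had an exact permutation p under 0.05, where 6 libraries against 6 allow a p as small as 0.00216.

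Gm13886 was at least 1.13 CPM in each hTDP-43 WT library and at most 0.284 CPM in each Chat bacTRAP library. From replicate 1 to replicate 6, the hTDP-43 WT values were 4.27, 1.13, 2.38, 2.16, 1.83 and 2.46 CPM, from 52 to 376 counts. The Chat bacTRAP values were 0.187, 0.0557, 0.284, 0.0287, 0.0951 and 0.269 CPM, from 1 to 8 counts. All 6 libraries with the transgene were above all 6 without it. The mean was 2.37 ± 1.05 CPM against 0.153 ± 0.109 CPM (SD, n = 6 each), a log2 fold change of 3.99 (SE 0.39, 95% interval 3.19 to 4.80) with an adjusted p of 5.28e-07 by edgeR's quasi-likelihood test on all 31 cord libraries. A gene was called when its adjusted p was under 0.05 and it differed 2-fold or more. Of 18178 genes tested, 1 was called (0.0055%), and 0 were called lower. Every other gene had an adjusted p of 0.9998 or above. With any 1 of the 12 libraries left out, the log2 fold change of Gm13886 stayed between 3.73 and 4.28.

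The same pseudogene was high in transgenic cord outside these 12 libraries. At 14 weeks, in libraries that share none with the 9-week comparison, it ranged from 2.60 to 4.81 CPM in 5 hTDP-43 WT libraries and from 0 to 0.126 CPM in 5 Chat bacTRAP libraries. The log2 fold change there was 5.79 (SE 0.45, 95% interval 4.87 to 6.72; edgeR, adjusted p = 1.85e-09). The difference between the log2 fold changes at the 2 ages was -1.80, which did not pass over all genes (edgeR, adjusted p = 0.999). In the hTDP-43 A315T line, whose transgene has the same promoter, 9-week cord gave 11.3 to 18.8 CPM in 5 libraries, and the log2 fold change was 6.66 against the same 6 Chat bacTRAP libraries. In 9-week MN-TRAP libraries, where depth differed widely, the 3 hTDP-43 WT values were 2.21, 0 and 10.3 CPM, and the first rested on 1 count. The 4 Chat bacTRAP values there were 0.610, 0.0275, 1.29 and 10.8 CPM, so the values do not separate by label in that fraction. Of these libraries, 3 go against their labels. hTDP-43 WT replicate 2 had 0 counts of Gm13886, and Chat bacTRAP replicate 4 and hTDP-43 WT replicate 3 carried Lamr1-ps1 at 1.55 and 1.25 CPM, a pseudogene found at 0.976 to 1.46 CPM in hTDP-43 A315T cord of 9 weeks. No direction is drawn from that fraction, and the 12 cord libraries did not show this.

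**Figure D1:**
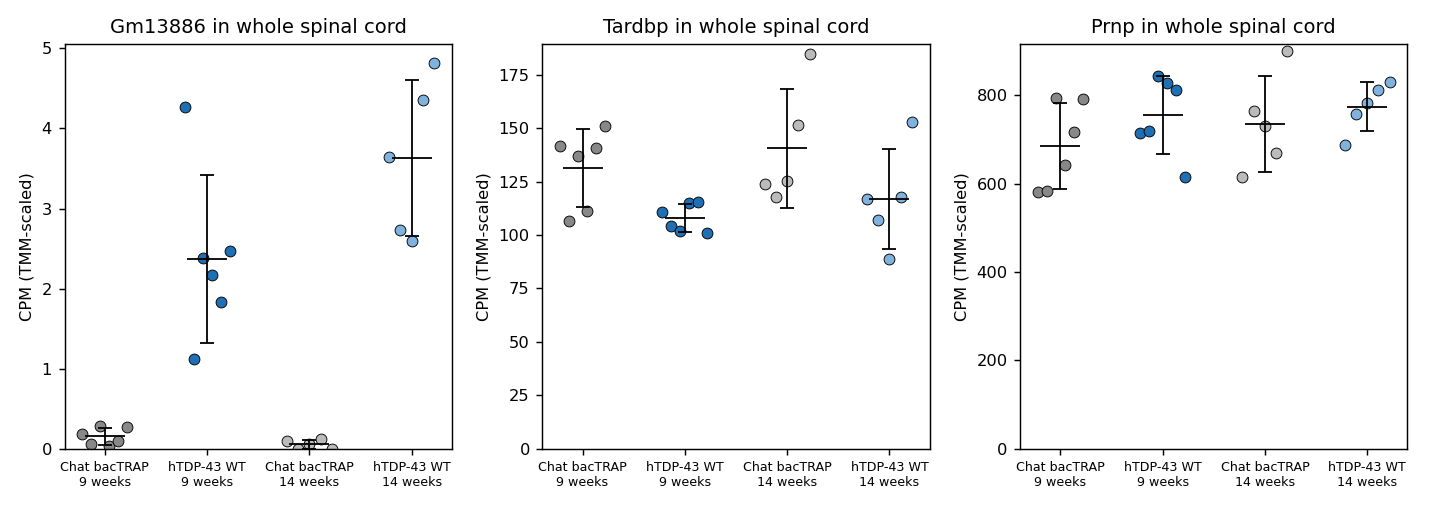
Levels of Gm13886, Tardbp and Prnp in whole spinal cord (y axis, TMM-scaled CPM, from 0) in Chat bacTRAP and hTDP-43 WT mice at 9 weeks (6 libraries each) and 14 weeks (5 each); each point is 1 library, and bars give mean ± SD. Only for Gm13886 do the groups separate, with hTDP-43 WT at 1.13 CPM or more and Chat bacTRAP at 0.284 CPM or less at 9 weeks.

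Endogenous Tardbp, which encodes mouse TDP-43, lay lower in hTDP-43 WT cord on average, but did not pass the test over all genes. Its hTDP-43 WT values ran from 101 CPM through a median of 107.5 to 115 CPM, and its Chat bacTRAP values from 107 through 139 to 151 CPM. Of the 6 control libraries, 4 were above all transgenic ones and the other 2 were within their range. The log2 fold change was -0.28 (SE 0.12, 95% interval -0.52 to -0.05; edgeR, unadjusted p = 0.0211, adjusted p = 0.9998). At 14 weeks it was -0.27 (95% interval -0.53 to -0.01; edgeR, unadjusted p = 0.0430, adjusted p = 0.446). In hTDP-43 A315T at 9 weeks Tardbp was at 112 to 147 CPM, a log2 fold change of 0.01 against the same controls. Tardbp and Gm13886 were 93.9% identical where their transcripts aligned, so counts of either may hold reads of the other or of the transgene. The methods state that the counter ran with standard parameters, and how far reads with several matches entered these counts was not tested.

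Other loci linked to the transgene did not pass. Prnp, the prion protein gene whose promoter drives the transgene, was at 615 to 844 CPM with the transgene and 581 to 795 CPM without it, a log2 fold change of 0.14 (95% interval -0.06 to 0.34; edgeR, unadjusted p = 0.159). The other Tardbp pseudogenes with a row in the tables, Gm2568 and Gm12879, had at most 4 counts in any of the 12 libraries and were not tested. Lamr1-ps1, a pseudogene on the list of transgene-linked loci, was listed at 0 in all 6 Chat bacTRAP libraries of 9-week cord and had at most 1 count (0.0408 CPM) in those of hTDP-43 WT. Within 1 Mb of Gm13886, 20 genes were tested, and 0 had an unadjusted p under 0.05. Of 42 tested within 1 Mb of Tardbp, 1 had such a p, and of 33 near Prnp also 1 (Tmem230, 0.0230), while none of these neighbours passed.

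Differences across the transcriptome were small. Among 14538 genes averaging 1 CPM or more, the absolute log2 fold change was 0.08 at the 50th percentile, 0.28 at the 95th and 0.46 at the 99th. Intervals were narrow enough to bound most genes: for 14145 of those 14538 (97.3%) the 95% interval lay within 2-fold in both directions, and for 12237 (84.2%) within 1.5-fold. Over all 18178 genes the shares were 86.4% and 68.1%. The edgeR test gave 264 genes an unadjusted p under 0.05 (1.45%), 133 higher (0.732%) and 131 lower (0.721%) in hTDP-43 WT. That share is smaller than the 0.05 which such a threshold gives when no gene differs. The number of these genes ran from 186 to 493 when 1 of the 12 libraries was left out. It was highest without hTDP-43 WT replicate 4 (493), Chat bacTRAP replicate 6 (471) or Chat bacTRAP replicate 3 (416).

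**Figure D2:**
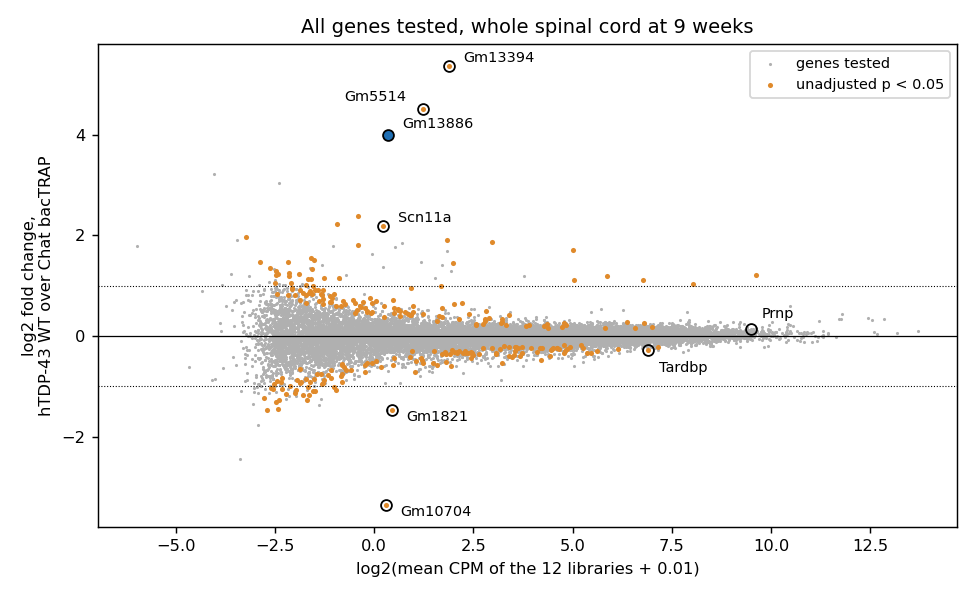
Log2 fold change of hTDP-43 WT over Chat bacTRAP (y axis) against the log2 mean CPM of the 12 libraries plus 0.01 (x axis) for the 18178 genes tested; orange points have an unadjusted p under 0.05, dotted lines mark a 2-fold difference and circled genes are named. Gm13886 (filled) passed the test at 3.99, whereas Gm13394, Gm5514 and Gm10704 are further from 0 or nearly as far and did not.

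Groups that did not overlap were also rare. In 13 genes (0.0715% of those tested) the 6 libraries of one genotype all lay above the 6 of the other, 6 with hTDP-43 WT above (0.033%) and 7 with it below (0.0385%). With labels assigned at random, such a separation has a probability of 0.00216, which is more than the share found. Of the 13, 4 averaged 1 CPM or more, namely Gm13886, ENSMUSG00000091744, Upp2 and Gm17399. ENSMUSG00000091744, which has no symbol in the annotation used, was at 3.93 to 5.97 CPM in hTDP-43 WT and 2.47 to 3.86 CPM in Chat bacTRAP. Its log2 fold change was 0.63 at 9 weeks (edgeR, unadjusted p = 0.000161) and 0.60 at 14 weeks (unadjusted p = 0.000722), neither of which passed. Upp2, a uridine phosphorylase, was at 33.5 to 36.3 CPM against 39.0 to 45.5 CPM (log2 fold change -0.24), yet differed by -0.02 at 14 weeks. Gm17399, a long noncoding RNA, was at 1.38 to 2.19 CPM against 0.729 to 1.38 CPM (log2 fold change 0.73), and pointed the other way at 14 weeks (-0.21).

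The genes of smallest unadjusted p among those of at least 1 CPM, none of which passed apart from Gm13886, belonged to varied functions. On the higher side, Rad51ap1, a DNA repair protein, had means of 2.29 ± 0.35 and 1.63 ± 0.28 CPM (SD, n = 6 each; log2 fold change 0.48, and 0.38 at 14 weeks). Dtx3l, a ubiquitin ligase induced by interferon, differed by 0.49 and Rnasek, ribonuclease kappa, by 0.60 (0.68 at 14 weeks). The long noncoding RNA Gm2885 gave 0.40 at 9 and 0.37 at 14 weeks. Smaller differences were those of D2hgdh, a mitochondrial dehydrogenase (0.27), and of Mettl8, a methyltransferase (0.24).
On the lower side, Dusp1, an immediate early phosphatase of MAP kinases, was at 18.0 to 21.6 CPM against 21.4 to 27.8 CPM (log2 fold change -0.28), with only the ends of the ranges touching. Ky (-0.51), known from muscle, and Clic6 (-0.53), an epithelial chloride channel protein, were lower at 9 weeks and at 0.03 and 0.12 at 14 weeks. Zscan20 (-0.34), Scube3 (-0.34), Ppfibp2 (-0.23) and Tbc1d2 (-0.53) were also in the set.

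The 264 genes were set beside the same contrast at 14 weeks, which shares no library with this one. Of these, 48 (18.2%) also had an unadjusted p under 0.05 at 14 weeks, where 10.7% of all genes did, and these 48 were 2.46% of the 1948 genes with such a p at 14 weeks. In 43 of the 48 the direction was the same (22 higher and 21 lower), and in 5 it was opposite. The sign alone agreed for 160 of the 264 (60.6%), against 56.1% of all genes. At 14 weeks 1 gene was called (0.0055%), again Gm13886, and 0 genes differed between the ages (edgeR on the difference of contrasts, 802 with an unadjusted p under 0.05, 4.41%). The 14-week count rests on single libraries: it was 155 without hTDP-43 WT replicate 3 of that age and 17 without Chat bacTRAP replicate 1.

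Markers of the main cord cell types did not pass, and the 21 chosen for motor neurons, oligodendrocytes, astrocytes and microglia had intervals within 2-fold. Chat, the acetylcholine-synthesising enzyme of motor neurons, was at 16.2 ± 6.17 CPM in hTDP-43 WT and 19.4 ± 9.41 CPM in Chat bacTRAP (SD, n = 6 each), a log2 fold change of -0.25 with a 95% interval from -0.80 to 0.30. The vesicular acetylcholine transporter Slc18a3 gave 0.13 (-0.37 to 0.63), at 186 CPM in hTDP-43 WT and 170 CPM in Chat bacTRAP. Because the strain name lists Slc18a3 in the bacTRAP transgene of both groups, its counts may hold transgene reads, which was not tested. The motor neuron transcription factors Mnx1 and Isl1 gave -0.08 (-0.35 to 0.19) and 0.13 (-0.19 to 0.44). In bulk tissue, fewer cells of a type and less RNA per cell cannot be told apart. Of the markers that define the labelled tissue, myelin genes were abundant (Mbp 6674 ± 478 against 6463 ± 802 CPM), and all 25 Hox genes on the list were measured in both groups.
The myelin genes Mog (0.00, 95% interval -0.19 to 0.18) and Mobp (0.04, -0.15 to 0.24) and the astrocyte gene Gfap (0.02, -0.24 to 0.27) had intervals well inside 1.5-fold. Among microglial genes, P2ry12 gave 0.07 (-0.46 to 0.61) and Tmem119 gave -0.10 (-0.48 to 0.29). For tissue that lies around the cord the data bound little: the muscle gene Acta1 ranged from 18.4 to 384.5 CPM in hTDP-43 WT and from 3.40 to 281 CPM in Chat bacTRAP, and its interval ran from -2.12 to 2.25. Pmp2, a myelin protein of Schwann cells, was at 0.342 ± 0.272 against 0.660 ± 0.283 CPM (log2 fold change -1.08, 95% interval -2.09 to -0.07; edgeR, adjusted p = 0.9998), while Prx of the same cells gave -0.25.

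**Figure D3:**
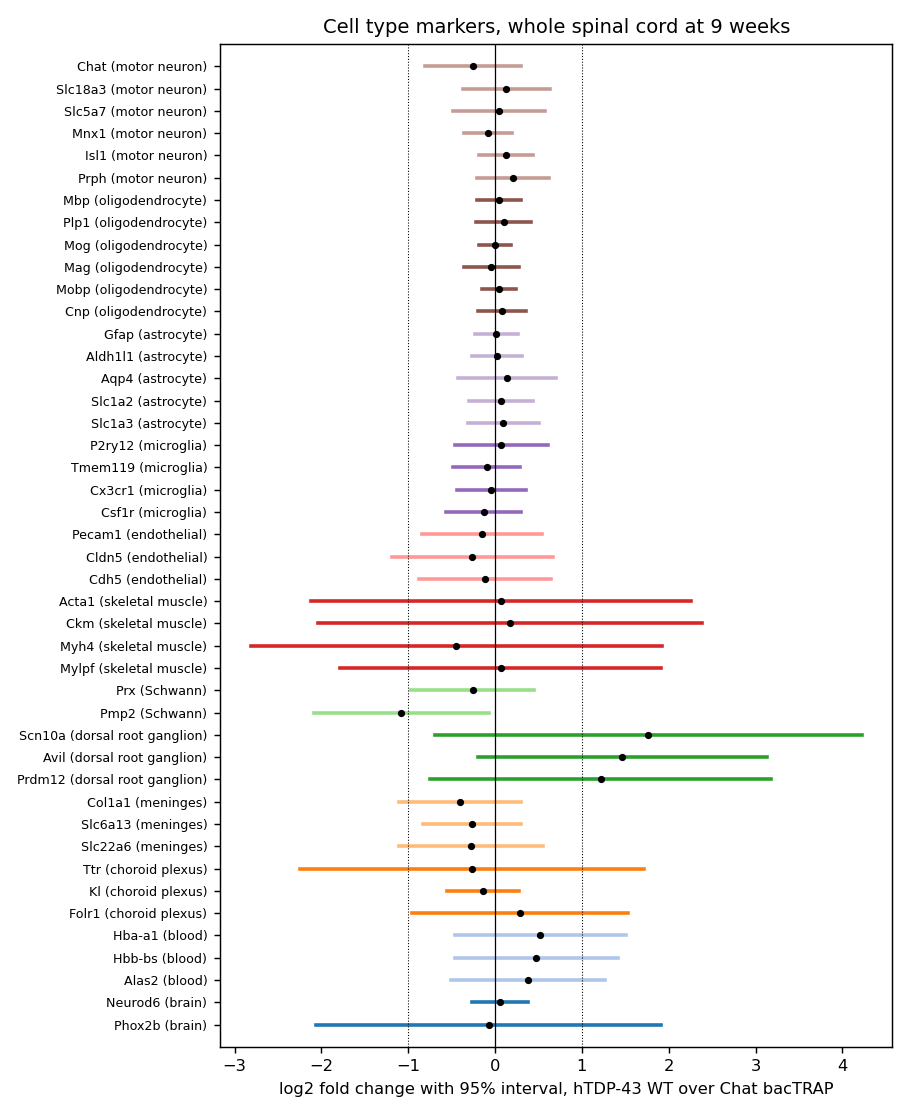
Log2 fold change of hTDP-43 WT over Chat bacTRAP at 9 weeks (x axis; point) with its 95% interval (bar) for cell type markers (y axis, cell type in brackets); dotted lines mark a 2-fold difference. Oligodendrocyte and astrocyte intervals stay inside the dotted lines, whereas those of muscle and dorsal root ganglion genes extend beyond them.

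Gene groups linked to TDP-43 and to ALS had medians near 0 and 0 members that passed, where the median over all genes tested was 0.01. Among 39 known neuronal targets of TDP-43 the median log2 fold change was 0.00, with 20 above 0 and 19 below, and 38 of the 39 intervals lay within 2-fold. The target with the smallest p, Grid1, a glutamate receptor subunit, was at 26.4 to 43.1 CPM against 37.1 to 52.2 CPM (-0.20; edgeR, unadjusted p = 0.0933). Of 28 ALS genes, 0 passed, the median was -0.01, and Tardbp had the only unadjusted p under 0.05. Vcp, a segregase mutated in ALS, gave 0.26 (95% interval -0.05 to 0.56). In the 36 genes of RNA binding and stress granules the median was 0.08 and 30 lay above 0, with Hnrnpc at 0.14 and Hnrnpu at 0.26. The 21 motor neuron genes had a median of -0.01 and all their intervals lay within 2-fold. The 12 neurofilament and axon genes had a median of 0.10, and 11 of them lay above 0.

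Injury, stress and immune groups gave 0 genes that passed. Medians were 0.02 in axon injury genes, 0.03 in ER stress genes and 0.07 in heat shock genes. They were 0.02 in astrocyte and 0.05 in reactive astrocyte genes, -0.06 in homeostatic and 0.02 in disease-associated microglial genes, 0.00 in complement and 0.09 in interferon genes, and -0.06 in antigen presentation genes. For immediate early genes the median was -0.05, for glucocorticoid response genes 0.10 and for clock genes -0.08. Ptx3, a pentraxin of reactive astrocytes, was at 1.60 ± 0.16 against 1.18 ± 0.39 CPM (0.43; edgeR, unadjusted p = 0.0501). Interneuron, myelin, oligodendrocyte precursor and ependymal genes were each at 0.00 and synaptic vesicle genes at 0.02.

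Some groups leaned to one side by small amounts, with 0 members passing. Of 23 genes of cholesterol synthesis and uptake, 22 lay below 0, with a median of -0.11. Their median at 14 weeks was 0.06. Nuclear oxidative phosphorylation genes lay above 0 in 35 of 38, with a median of 0.13, cytosolic ribosomal protein genes in 43 of 52 (0.09) and Hox genes in 22 of 25 (0.09). As a share of counts, oxidative phosphorylation genes had close medians (1.22% against 1.21%) and were highest in hTDP-43 WT replicates 2 and 6 (1.68% and 1.47%, against at most 1.38% in a control). Ribosomal protein genes likewise had medians of 0.586% and 0.589%, with 0.828% in replicate 2, and the part of these libraries in the lean was not tested. Endothelial and pericyte genes lay below 0 in 18 of 22 (-0.13), and meningeal genes in 15 of 18 (-0.08). Over all genes tested 52.5% were above 0. Genes of one group share pathways and cells, so they are not independent measurements. At 14 weeks the median of the endothelial genes was -1.24, and 0 of them were called there with all libraries in the fit.

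Groups from tissue at the edge of the cord were spread more widely. The 15 dorsal root ganglion genes had a median of 1.22, with 13 above 0 and 2 (Scn11a and Tmem45b) at an unadjusted p under 0.05. Scn11a was high in the 3 libraries named above. These 3 libraries were picked for high levels of genes such as Scn11a. Without them Scn11a gave 0.13 in place of 2.19, as that choice fixes, Tmem45b gave 1.03 in place of 2.39 and Gm13886 gave 4.06. The 10 mitochondrially encoded genes tested had a median of 0.34, and without hTDP-43 WT replicate 4 mt-Nd2 changed from 0.44 to -0.25. Medians were -0.07 in skeletal muscle genes, -0.07 in Schwann cell genes, -0.03 in choroid plexus genes, 0.04 in blood genes and 0.07 in genes of other brain regions. Genes that mark C57BL/6 substrains or are passengers near transgenes had a median of 0.00.

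**Figure D4:**
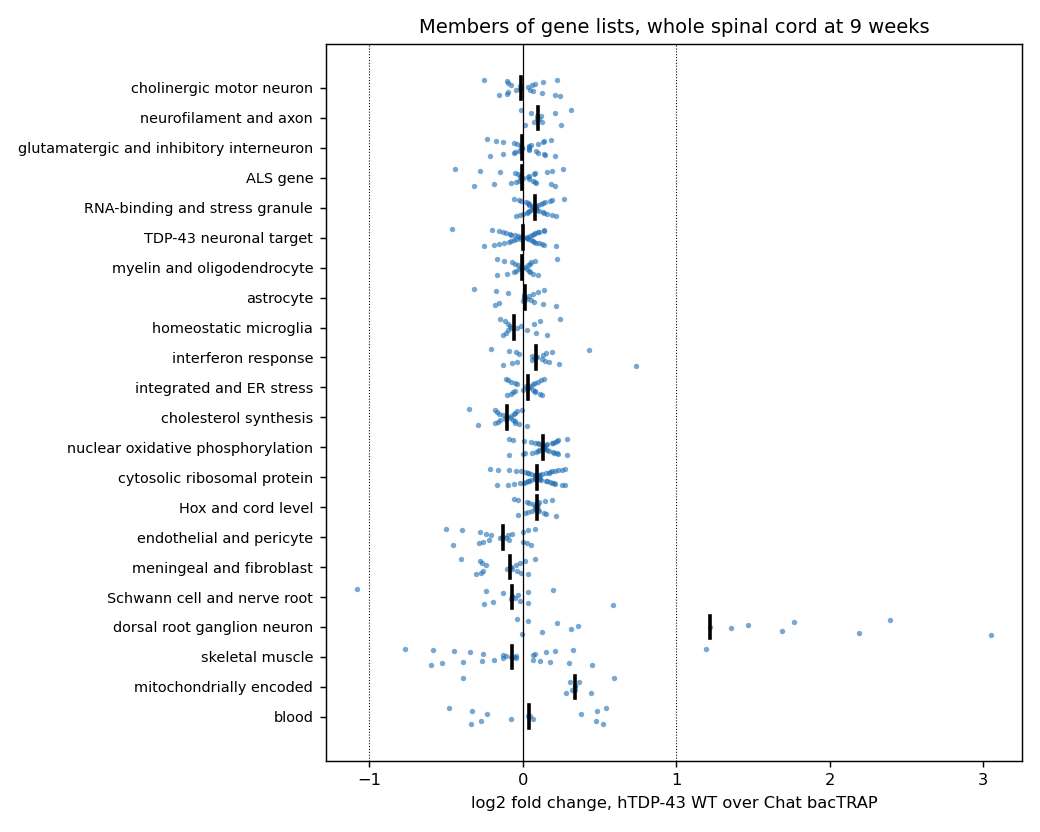
Log2 fold change of hTDP-43 WT over Chat bacTRAP at 9 weeks (x axis) for the tested members of 22 gene lists (y axis); each point is 1 gene, thick bars are list medians and dotted lines mark a 2-fold difference. Most lists centre near 0, and the dorsal root ganglion list, with a median of 1.22, is the one that extends furthest to the right.

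The study followed up genes that differed in MN-TRAP libraries of the mutant line at the later age, against both control lines. The comparison here sets those control lines against each other in whole cord at 9 weeks, so it does not test those changes. In it the followed-up genes did not pass, and intervals were wide for the scarcer ones. Plekhb1, abundant in oligodendrocytes, was at 827 to 982 CPM against 759 to 1010 CPM (log2 fold change 0.02, 95% interval -0.17 to 0.22). Tia1, a stress granule protein, gave 0.22 (-0.28 to 0.71), Nhlh1, a neuronal transcription factor, gave -0.05 (-0.46 to 0.35), Tex26 gave 0.41 (-0.27 to 1.10), and Mxd3, a repressor of the MYC network, gave 0.53 (-0.18 to 1.23). Syngr4 was too scarce to be tested.

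Large differences in single libraries set most of the largest fold changes. Of the 14538 genes of at least 1 CPM, 25 differed more than 2-fold, 22 of them higher, and in 6 of the 25 the medians of the groups also differed 2-fold. The 2 largest were pseudogenes on in 1 library. Gm13394, a processed pseudogene with 99.9% identity to the glycolytic gene Gapdh over 1000 bases, was at 41.8 CPM in hTDP-43 WT replicate 5 and at 0.0672 to 0.327 CPM in the other 11 libraries. Gm5514, a pseudogene of the lactate dehydrogenase gene Ldhb (98.0% identity), was at 25.3 CPM in the same library and at 0.101 to 0.454 CPM in the others. The size of their fold changes (5.37 and 4.52) rests on that library. Both pseudogenes are among the 6 whose medians differed 2-fold, but those medians were low. They were 0.299 CPM in hTDP-43 WT against 0.148 CPM in Chat bacTRAP for Gm13394, and 0.349 against 0.141 CPM for Gm5514. At 14 weeks both were high in hTDP-43 WT replicates 3 and 5, Gm13394 at 61.7 and 35.7 CPM and Gm5514 at 27.3 and 15.8 CPM, and in the 28 other cord libraries Gm13394 was at most 0.403 CPM.
The reverse held for Gm10704, a pseudogene of Rtraf with 98.6% identity. It was at 6.61 and 5.92 CPM in Chat bacTRAP replicates 1 and 6, at most 0.287 CPM in the other 4, and at most 0.354 CPM in all 6 hTDP-43 WT libraries (log2 fold change -3.35; edgeR, adjusted p = 0.9998). It was also high in Chat bacTRAP replicate 1 at 14 weeks (5.34 CPM) and in 4 of the 9 hTDP-43 A315T cord libraries (4.31 to 6.53 CPM). Gm1821, a ubiquitin pseudogene, was at 5.84 and 2.92 CPM in Chat bacTRAP replicates 3 and 6 and at most 1.06 CPM in the other 10. Reads of the near-identical parents may be counted in these copies, which leaves their levels uncertain.
Most of the rest of the 25 were highest in a few libraries. Among them 9 were highest in hTDP-43 WT replicate 2 or 3, such as Fxyd2, a subunit of the sodium pump (43.5 and 21.7 CPM there, 8.13 CPM in Chat bacTRAP replicate 2 and 1.78 to 3.74 CPM in the other 9). Another 9 were highest in hTDP-43 WT replicate 4 or 6, such as Gm42418, which overlaps a ribosomal RNA repeat (2997 and 1396 CPM there against 104.5 to 1120 CPM elsewhere), and Car3, a carbonic anhydrase of muscle and fat (52.6 CPM in replicate 6). Fxyd2 and Gm42418 were named after their values were seen.

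**Figure D5:**
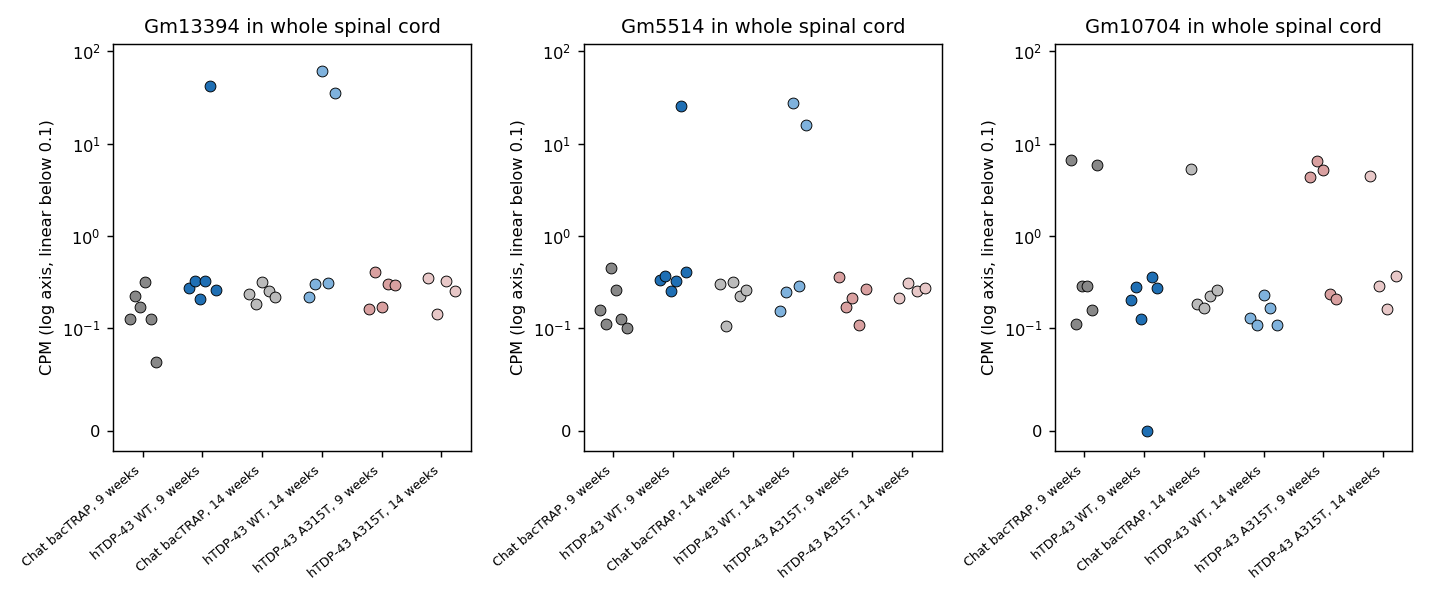
CPM of Gm13394, Gm5514 and Gm10704 (y axis, logarithmic above 0.1 and linear below) in each whole spinal cord library of the 3 genotypes at 9 and 14 weeks (x axis); each point is 1 library. Gm13394 and Gm5514 are high in the same 3 hTDP-43 WT libraries, 1 at 9 weeks and 2 at 14 weeks, and Gm10704 is high in Chat bacTRAP and hTDP-43 A315T libraries and in none of hTDP-43 WT.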

How the data were processed

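RNA from the 12 cord libraries was sequenced and processed by the authors, who, per the labels and methods, demultiplexed with bcl2fastq2 (2.17), aligned with STAR (2.5.2b) to mm10 and counted genes with featureCounts (1.5.1). The deposited values are raw read counts per gene, 43629 genes in each library. Here they were filtered for low counts by group, scaled by TMM and fitted in edgeR 4.0.16 (R 4.3.3), with quasi-likelihood tests in 1 model of the 31 cord libraries in 6 groups, which share 1 estimate of the spread. Benjamini-Hochberg adjustment ran over 18178 genes. CPM are TMM-scaled. DESeq2 1.42.0 and limma 3.58.1 served as alternatives. Symbols and positions came from GENCODE M21, which matched 42548 genes. Named genes were the transgene loci, the genes that passed, then the 12 smallest p in each direction, the 2 smallest p of each of 39 lists, and the genes followed up by the study. Some genes that this rule names are not reported here. Comparison, members and lists were chosen with earlier results of these data known. Of these steps, only the edgeR quasi-likelihood fit was tried on simulated counts. The kit is not stated to keep strand, so overlapping genes may share reads.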

Additional observations from a re-analysis of the deposited data

Results flagged for a closer look

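Among 242 groups of 6 libraries examined (each named gene and library measure in each genotype), 23 held 1 library further from the nearest other than 0.625 of the group's range. A rate of about 1 in 20 holds for independent groups of normally distributed values. Many of these genes were named for their p, and several measures share genes, so the 23 cannot be read against that rate. Of the 23, 6 were hTDP-43 WT replicate 4, namely mt-Nd5 at 5534 CPM, mt-Nd2 at 11745 CPM, the share of mitochondrially encoded counts at 10.1%, the share of the 10 largest genes at 12.4%, Ciita at 0.367 CPM and Tex26 at 0.204 CPM, the last being the lowest of its group. Another 4 were Chat bacTRAP replicate 2, with Scn11a at 2.06 CPM, Tmem45b at 1.28 CPM, Syn1 at 609.7 CPM and the Purkinje cell gene Pcp2 at 0.445 CPM. In hTDP-43 WT replicate 1, Rad51ap1 (2.97 CPM), Myrf (195 CPM) and Fa2h (286 CPM) stood apart. In replicate 5 Gm13394 (41.8 CPM), Gm5514 (25.3 CPM) and Nefl (2841 CPM) did, and in replicate 6 Car3 (52.6 CPM) and Hoxc8, the lowest at 119 CPM. Among the controls, replicate 3 had Cxcl10 at 2.78 CPM and a meningeal share of 0.369%, replicate 6 had Col1a1 at 126 CPM and a choroid plexus share of 0.00224%, and replicate 4 had an ependymal share of 0.0153%.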

How the results depend on the processing

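Gm13886 passed in 25 of 26 alternatives at 9 weeks, with log2 fold changes from 3.73 to 4.31 (3.73 to 4.28 with 1 library left out) and adjusted p from 9.53e-21 to 0.688. The exception was the fit of all 56 libraries, which called 0 genes (37 with an unadjusted p under 0.05) and gave Gm13886 3.97 at an unadjusted p of 3.65e-05. DESeq2 called 2, Gm13886 and Gm13394 (5.38, adjusted p = 0.0163). It gave 289 genes an unadjusted p under 0.05 at any fold, against 264 in the main edgeR fit. With 1 library left out the number called at 9 weeks was 1 throughout. At 14 weeks DESeq2 called 58 and limma-voom 115, and the main edgeR fit gave 1948 genes an unadjusted p under 0.05 at any fold. With 1 library left out 1 to 155 were called at that age (155 without hTDP-43 WT replicate 3, 17 without Chat bacTRAP replicate 1 and 2 without Chat bacTRAP replicate 4). The difference between ages called 0 in each alternative run with adjustment. In the main edgeR fit 802 genes had an unadjusted p under 0.05 at any fold for that difference. The cause of these shifts was not tested. Tardbp was below 0 in 27 of 27 settings (-0.34 to -0.23), 23 of them with an unadjusted p under 0.05. Replicate numbers did not pair the libraries: correlations of same-numbered libraries ran from -0.38 to 0.41, and 2 of 6 were above 0.1. With the replicate number as a block 1 gene was called over 31 libraries (adjusted p = 4.59e-06) and 1 over the 12 (adjusted p = 0.00869). Of 2617 values of 102 named genes under the alternatives, 2588 kept direction and side and 27, in 18 genes, changed sign. With 4 composition covariates (chosen after seeing the data) these were Sncg (-0.0185), Scn11a (-0.48), Tnnc1 (-0.0788), mt-Nd5 (-0.14), mt-Nd2 (-0.0224), Creld2 (-0.0425), Syn1 (-0.0289), Pcp2 (-0.0583) and Plekhb1 (-0.0145). Without the 3 libraries high in Scn11a, likewise added, they were Sncg (-0.0233), Tac1 (-0.0160), Myrf (0.0334), Atp5k (-0.0270) and Plekhb1 (-0.0142), and with limma-voom Nhlh1 (0.0326). Leaving out 1 library gave ranges of -0.00881 to 0.45 for Sncg, -0.0357 to 0.37 for Ptprz1, -0.0338 to 0.28 for Vcan, -0.65 to 0.00252 for Cxcl10, -0.67 to 0.0737 for Col1a1, -0.25 to 0.90 for mt-Nd5, -0.25 to 0.69 for mt-Nd2, -0.16 to 0.13 for Nhlh1, -0.0164 to 0.0702 for Plekhb1 and -0.0701 to 0.36 for Tia1. Depth limits the scarce genes: under 1 CPM many intervals exceed 2-fold.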
